A study of Homo sapiens with 4 samples.

Results

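Of 20046 named genes on the array, 10 genes of the Notch pathway are described here, read by 16 of the 47322 probes. They were matched by annotated symbol from a list drawn up with earlier results of these arrays known, and comprise the ligand genes DLL1, DLL3 and JAG1, the receptor genes NOTCH1, NOTCH2 and NOTCH3, the Fringe modifier genes LFNG and MFNG, and the target genes HES1 and HEY1. RNA came from RUES2, a long-used line of human embryonic stem cells, taken at day 5 of directed cardiac differentiation, when cardiovascular progenitors arise. Before differentiation all cells had received a lentivirus with a short hairpin RNA (shRNA) and had been selected with puromycin, the controls included. The TMEM88 shRNA group held 1 array of cells with hairpin 691 and 1 array with hairpin 94, which target different domains of TMEM88, so its spread includes the difference between hairpins. The control shRNA group held 2 arrays, named controls 1 and 2. The labels do not say whether the 4 samples were separate cultures, so the spread behind each p-value may be technical.

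Notch signalling passes between neighbouring cells. Delta-like and Jagged ligands on one cell bind Notch receptors on the next, the receptor is cut by proteases, and its released intracellular part joins the DNA-binding protein RBPJ to switch on target genes such as those of the HES and HEY families. Fringe enzymes add sugars to the receptor and so alter its response to the ligand classes. In the embryo the pathway patterns the somites, the endothelium and the endocardium, and HEY factors take part in dividing the heart into chambers. DLL3 differs from the other Delta-like ligands in that it does not activate Notch on neighbouring cells and lies mainly inside the cell.

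RefSeq promoter windows of GRCh38.p14, each with 250 bases before and 50 after an annotated start, were searched for letters bound by Notch pathway factors in 7 windows of 6 of these genes: HES1, JAG1, LFNG, NOTCH1, NOTCH2 and NOTCH3. Shown are the windows of LFNG, whose level differed between the groups as described below, and of HES1, the best known direct target of the pathway. Capitals mark TGGGAA, the core letters of RBPJ sites, and CACGNG, the E-box class bound by HES and HEY repressors, each on either strand. The HES1 window lies at chr3:194135898-194136197 on the plus strand, and the LFNG windows at chr7:2512279-2512578 and chr7:2517613-2517912, also on the plus strand.
HES1: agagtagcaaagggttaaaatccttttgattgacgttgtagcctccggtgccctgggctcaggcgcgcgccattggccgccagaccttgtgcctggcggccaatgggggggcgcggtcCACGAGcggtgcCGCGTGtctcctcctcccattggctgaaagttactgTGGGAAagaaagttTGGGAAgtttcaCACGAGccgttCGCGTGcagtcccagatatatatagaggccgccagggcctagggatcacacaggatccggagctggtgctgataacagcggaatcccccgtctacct
LFNG, first window: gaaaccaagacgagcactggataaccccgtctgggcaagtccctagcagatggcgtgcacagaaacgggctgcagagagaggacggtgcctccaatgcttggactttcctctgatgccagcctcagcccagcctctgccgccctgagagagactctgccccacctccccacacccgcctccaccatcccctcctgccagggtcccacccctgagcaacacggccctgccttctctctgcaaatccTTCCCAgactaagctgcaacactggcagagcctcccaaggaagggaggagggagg
LFNG, second window: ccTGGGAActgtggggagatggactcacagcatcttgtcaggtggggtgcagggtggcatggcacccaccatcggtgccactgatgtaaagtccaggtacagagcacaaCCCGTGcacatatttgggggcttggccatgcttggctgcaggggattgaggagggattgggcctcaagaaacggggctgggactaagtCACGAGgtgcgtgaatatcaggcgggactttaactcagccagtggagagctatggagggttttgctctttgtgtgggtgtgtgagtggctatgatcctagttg
The HES1 window held TGGGAA at positions -84 and -70 from the start site and 4 matches to CACGNG. Each LFNG window held 1 match to the RBPJ letters, as TTCCCA at -5 in the first and as TGGGAA at -248 in the second. Among all 35116 RefSeq windows of this length, 24.0% held TGGGAA and 30.5% held CACGNG on either strand. Of the 6 genes, 2 held TGGGAA and 5 held CACGNG. The T-box half-site GGTGTGA and the TCF/LEF core CTTTGAT were in none of the 7 windows, against 3.45% and 2.62% of all windows. A match is a run of letters and does not show binding.

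The arrays had between 15300 and 16516 probes detected, meaning a detection p under 0.01 against that array's background. Levels below are scanner signals in linear units, or normalized log2 intensities after background correction and quantile normalization. Levels of different probes are not set against each other, and with 4 arrays the precision of each value is limited. TMEM88 itself, the gene targeted, had 9.62% of the control level (geometric mean) on the shRNA 691 array and 52.9% on the shRNA 94 array, while controls 1 and 2 had 85.4% and 117%. Over both hairpins its log2 difference of -2.15 ± 0.71 (SE, n = 2 per group) did not pass (limma adjusted p = 0.187). In RNA from whole cultures, fewer cells of a type and less RNA per cell cannot be told apart.

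The comparison of both TMEM88 hairpins with both controls asked whether lowering TMEM88 altered Notch pathway genes. DLL3 rose 3.03-fold, LFNG rose 2.74-fold, HEY1 was 7.01-fold lower, and the other 7 genes did not pass the threshold, a limma adjusted p under 0.05 over all 10377 tested genes. Thus 2 of 10 genes were called higher and 1 lower, where 0.954% of all tested genes were called higher, 1.02% lower and 1.98% in either direction. Among the 8 genes detected on all 4 arrays the same counts held. The median log2 difference of the 10 genes was 0.70, against 0.00 over all tested genes. The 2 groups of arrays did not overlap for 9 of the 10, where 50.2% of all tested genes did not overlap. The genes were listed with earlier results of these arrays known. MFNG, detected on neither control array, entered the test only through the group in which it was higher. DLL1, detected on 1 control array, also needed that group to enter. These totals, those over the 8 genes included, therefore lend no support to a shift of the group. The normalized levels of each gene by array are plotted next.

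**Figure D1:**
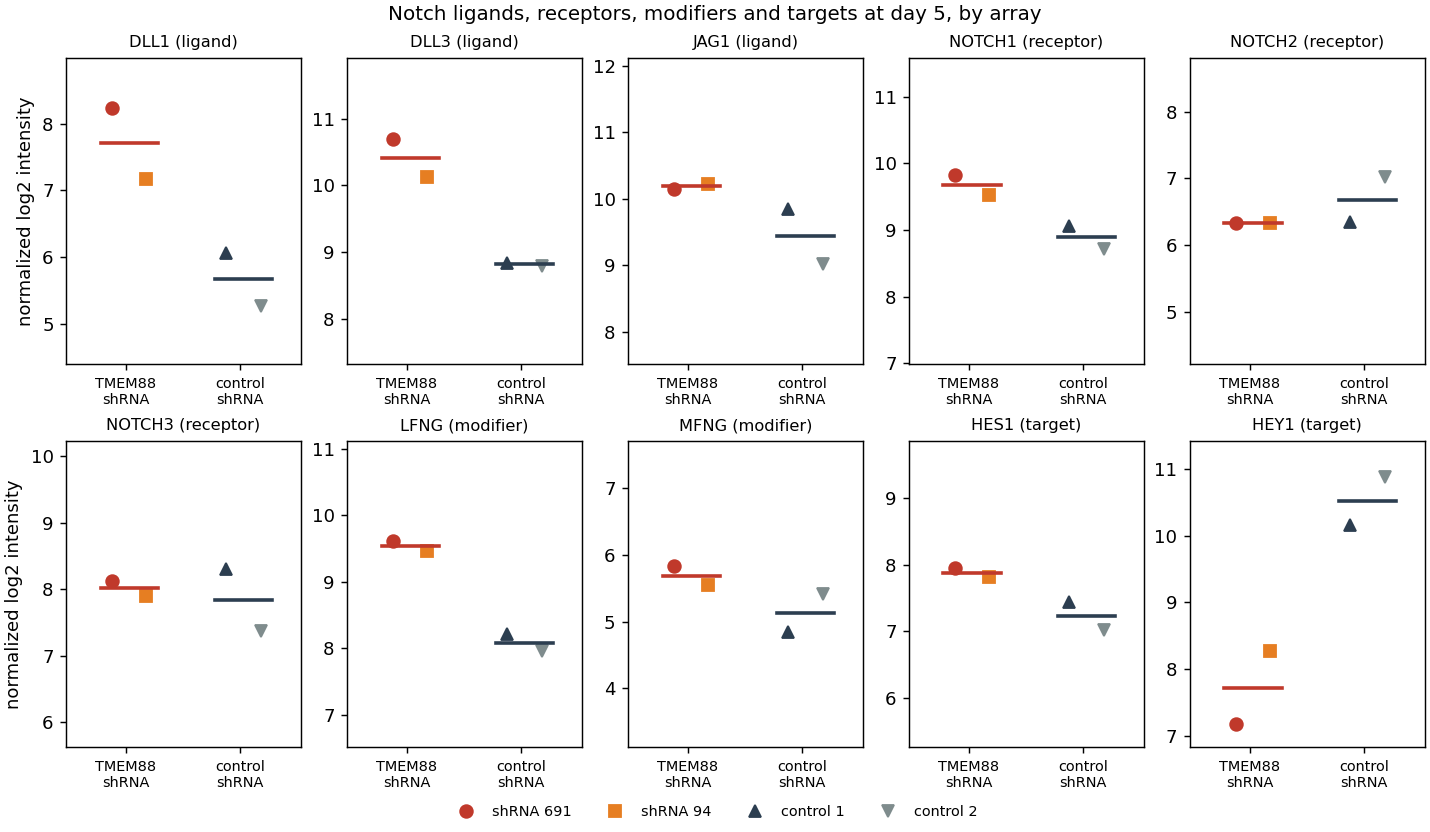
Normalized log2 intensity (vertical axes, all spanning the same number of log2 units) of the 10 Notch genes on the 2 TMEM88 shRNA arrays (left) and the 2 control shRNA arrays (right), with lines at the group means. DLL1, DLL3 and LFNG lie higher on both TMEM88 shRNA arrays, HEY1 lies lower on both, and the groups of NOTCH3 overlap.

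Among the ligands, DLL3 had signals of 1774.5 with shRNA 691 and 1155.6 with shRNA 94, against 580.8 and 547.4 in controls 1 and 2 (probe ILMN_1736096). Both TMEM88 shRNA arrays lay above both controls, which were nearly level with each other. After normalization DLL3 stood at 370% and 248% of the control mean with shRNA 691 and 94. The DLL3 difference was 1.60 ± 0.27 on the log2 scale (SE, n = 2 per group), a 3.03-fold rise with a limma adjusted p of 0.0401. The 95% interval of this difference ran from 0.95 to 2.24. The call was lost without either hairpin, at 1.31 (limma adjusted p = 0.306) without shRNA 691 and at 1.89 (limma adjusted p = 0.0865) without shRNA 94. A second, dimmer DLL3 probe read 226.5 with shRNA 691 and 150.3 with shRNA 94, against 134.8 and 154.3 in controls 1 and 2. On that probe the groups overlapped, since shRNA 94 lay below control 2, and control 1 was not detected. Its log2 difference of 0.85 ± 0.44 did not pass among the 13248 probes fitted together (limma adjusted p = 0.36), so the size of the DLL3 rise differed between its probes.

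DLL1, the Delta-like ligand that activates receptors on neighbouring cells in the forming somites, had the largest positive log2 difference of the 10 genes but did not pass. Its signals were 427.6 with shRNA 691 and 239.6 with shRNA 94, against 173.9 and 145 in controls 1 and 2. Control 2 was not detected, so the size of the difference is uncertain. Both TMEM88 shRNA arrays were above both controls, yet the arrays within each group also lay apart, by 1.07 on the log2 scale between hairpins and by 0.80 between controls. The DLL1 log2 difference was 2.04 ± 0.42 (SE, n = 2 per group, limma adjusted p = 0.0673), and its place among the rises of all 10377 genes was 48, against 98 for DLL3. Without control 1 it was 2.44, and without control 2 it was 1.64. Without shRNA 94 it was 2.57, and without shRNA 691 it was 1.50. With no background correction the DLL1 difference was 1.01 (limma adjusted p = 0.118).

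JAG1, the Jagged ligand whose loss of function causes heart and bile duct malformations in people, read 1245.8 with shRNA 691 and 1228.4 with shRNA 94. Controls 1 and 2 read 1075.8 and 628.6 for JAG1. The hairpin arrays were nearly level, and the controls lay 0.83 apart on the log2 scale, more than the group means did. The JAG1 log2 difference of 0.75 ± 0.32 (SE, n = 2 per group) did not pass (limma adjusted p = 0.275). Without control 1, the higher of the controls, it was 1.16, and without control 2 it was 0.332.

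None of the 3 receptor genes passed. NOTCH1, the receptor that acts in endothelium and endocardium among many tissues, read 1020 with shRNA 691 and 795.9 with shRNA 94, against 661.6 and 525.1 in controls 1 and 2. Both hairpin arrays of NOTCH1 lay above both controls, and NOTCH1 differed by 0.79 ± 0.25 on the log2 scale (SE, n = 2 per group, limma adjusted p = 0.178). Without control 1 it was 0.953, and without control 2 it was 0.620. NOTCH2 was detected on all 4 arrays by 1 of its 3 probes, at 197.7 with shRNA 691 and 182.1 with shRNA 94, against 188.8 and 232.8 in controls 1 and 2. The signals overlapped, and the normalized levels missed overlapping by 0.0151 on the log2 scale. The NOTCH2 log2 difference was -0.35 ± 0.29 (limma adjusted p = 0.569), with a 95% interval from -1.03 to 0.33. NOTCH2 has near-identical partial copies in the human genome, the NOTCH2NL genes, and whether its probes tell them apart was not tested. The other 2 NOTCH2 probes were detected on 0 arrays.

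NOTCH3, a receptor of smooth muscle and pericytes, read 406.3 with shRNA 691 and 325.4 with shRNA 94, against 437.2 and 267.7 in controls 1 and 2. Both hairpin arrays lay between the controls. The NOTCH3 log2 difference was 0.18 ± 0.34 (SE, n = 2 per group, limma adjusted p = 0.83), with a 95% interval from -0.64 to 0.99, and its sign turned to -0.295 without control 2. For NOTCH2 and NOTCH3 these intervals leave room for differences of up to about 2-fold.

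Of the Fringe genes, LFNG (lunatic fringe), which oscillates with the somite clock in mouse, rose. It read 910 with shRNA 691 and 765.7 with shRNA 94, against 416.3 and 351.4 in controls 1 and 2 (probe ILMN_1663080). LFNG arrays lay close together within each group, 0.15 apart on the log2 scale between hairpins and 0.25 between controls, and the nearest arrays of the 2 groups were 1.25 apart. The LFNG log2 difference was 1.45 ± 0.24 (SE, n = 2 per group), a 2.74-fold rise with a limma adjusted p of 0.0342. The estimate stayed near this value without shRNA 691, at 1.38, and without shRNA 94, at 1.53, but the call was lost in both cases (limma adjusted p = 0.287 and 0.193). With median scaling in place of quantile normalization, LFNG and DLL3 both missed the threshold narrowly (limma adjusted p = 0.0515 and 0.0566, log2 differences 1.39 and 1.52). The other 2 LFNG probes were each detected on 1 array and were not tested. One read 162.2 and 124.7 with shRNA 691 and 94, against 131.8 and 141.8 in controls 1 and 2, and the other 150.1 and 136.9, against 151.3 and 146.7. The LFNG rise thus rests on 1 probe.

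MFNG (manic fringe) was faint. It read 171.3 with shRNA 691 and 152 with shRNA 94, both detected, against 131.7 and 149.1 in controls 1 and 2, neither detected. Set against the lowest detected level or the probe's own level on each control array, whichever was higher, MFNG on the TMEM88 shRNA arrays was at least 1.16-fold higher. The MFNG test did not pass (log2 difference 0.56 ± 0.28, SE, n = 2 per group, limma adjusted p = 0.35).

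The target genes HEY1 and HES1 differed in opposite directions. HEY1, a repressor of the hairy family that acts downstream of Notch in the heart and vessels, read 264.3 with shRNA 691 and 390 with shRNA 94, against 1294 and 2022.9 in controls 1 and 2 (probe ILMN_1788203). Both hairpin arrays were far below both controls, with 1.89 on the log2 scale between the nearest arrays of the groups, although the arrays within each group also lay apart. After normalization HEY1 stood at 9.76% of the control mean with shRNA 691 and at 20.9% with shRNA 94. The HEY1 log2 difference was -2.81 ± 0.42 (SE, n = 2 per group, limma adjusted p = 0.026), with a 95% interval from -3.81 to -1.81. HEY1 had rank 31 among the falls of all 10377 genes. Without shRNA 691 the difference was -2.26 and missed the threshold (limma adjusted p = 0.0836), while without shRNA 94 it was -3.36 (limma adjusted p = 0.0165).

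The second HEY1 probe showed the same direction. It read 143.6 with shRNA 691 and 143.9 with shRNA 94, neither detected, against 248.7 and 276.9 in controls 1 and 2, both detected. It was at least 3.80-fold lower with the TMEM88 hairpins (limma adjusted p = 0.0104 in the fit of all detected probes). That probe entered the fit only through the control arrays, where it is high, so its test lends no support of its own and its values are a description.

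HES1, a repressor and the target whose promoter is printed above, read 372 with shRNA 691 and 313 with shRNA 94, against 287.9 and 233.6 in controls 1 and 2. Both hairpin arrays lay above both controls by a small margin, 0.37 on the log2 scale between the nearest arrays. The HES1 log2 difference was 0.65 ± 0.25 (SE, n = 2 per group), a 1.57-fold difference that did not pass (limma adjusted p = 0.243). The signals of each probe of the genes with several probes are plotted next.

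**Figure D2:**
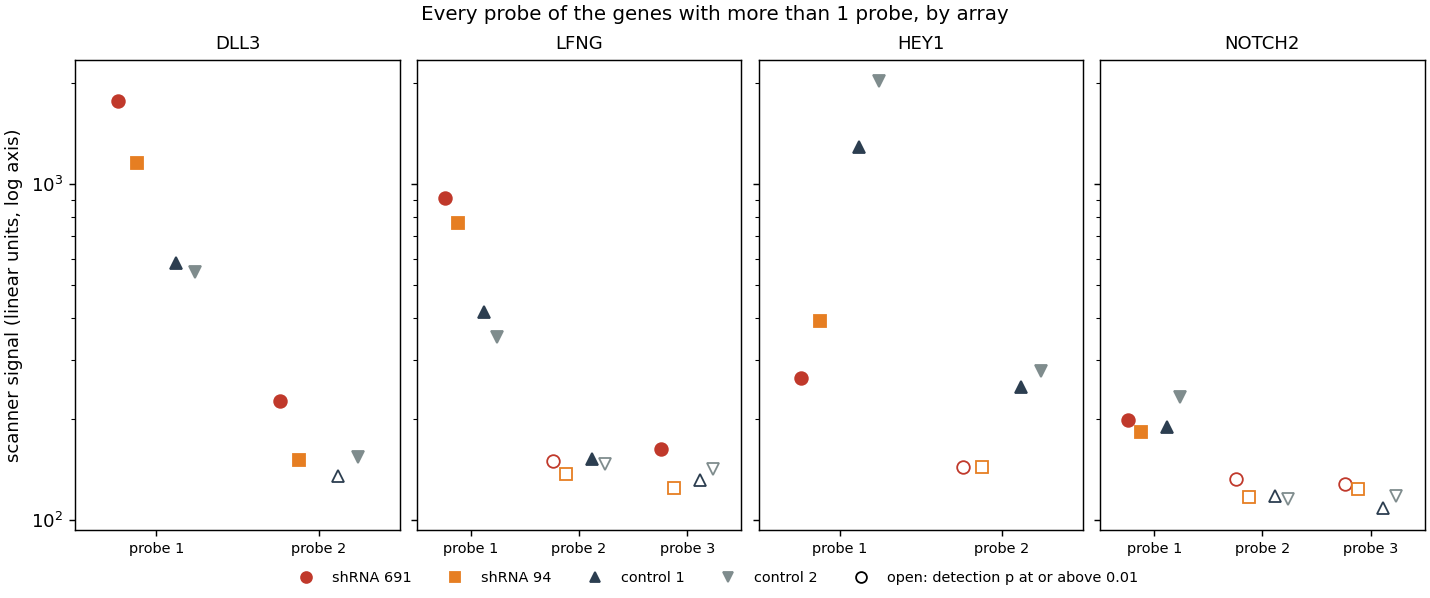
Scanner signal on a log axis for each probe of DLL3, LFNG, HEY1 and NOTCH2 on the 4 arrays, probes ordered by their control level and open symbols marking a detection p at or above 0.01. Probe 1 of DLL3 and LFNG is higher on both TMEM88 shRNA arrays, both HEY1 probes are lower there, and the brightest NOTCH2 probe is detected on all 4 arrays with overlapping groups.

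The hairpins were also set against the controls singly, in a fit with 3 groups whose residual spread comes from the control pair and is taken to hold for each single hairpin array. With shRNA 691, DLL1 rose (log2 difference 2.57 ± 0.46, SE, limma adjusted p = 0.0446) and HEY1 fell (-3.36 ± 0.45, limma adjusted p = 0.0165), so 2 of 10 genes passed, where 0.867% of all tested genes did. With shRNA 94, 0 of 10 passed in limma, where 0.482% of all tested genes did. The nearest to the threshold was HEY1 at -2.26 ± 0.45 (limma adjusted p = 0.0836). Both hairpin comparisons share the same 2 control arrays. DLL1 was detected on only 1 of these, so it entered the fit only with the TMEM88 shRNA arrays, where it is higher, and its call lends no support.

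The difference between the hairpins was tested directly, without the controls' levels. In limma 0 of the 10 genes passed, 0 had an unadjusted p under 0.05, and 0% of all tested genes passed. HEY1 came nearest, lower with shRNA 691 than with shRNA 94 by a log2 difference of -1.10 with a 95% interval from -2.27 to 0.07. DLL1 was higher with shRNA 691 by 1.07, with an interval from -0.13 to 2.26, and DLL3 by 0.58, from -0.45 to 1.61. For LFNG the hairpins differed by 0.15, from -0.89 to 1.20, and for JAG1 by -0.08, from -1.29 to 1.13. These intervals are wide. TMEM88 itself differed between the hairpins by a log2 difference of -2.46 and did not pass, so even differences that large were not called here. The 0 of 10 therefore does not show that the hairpins acted alike. TMEM88 stood at 9.62% of control with shRNA 691 and at 52.9% with shRNA 94. DLL1, DLL3 and HEY1, named here after their values were seen, differed more from control with shRNA 691. LFNG and JAG1 were nearly level between the hairpins. The part of the TMEM88 level in these differences was not tested.

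**Figure D3:**
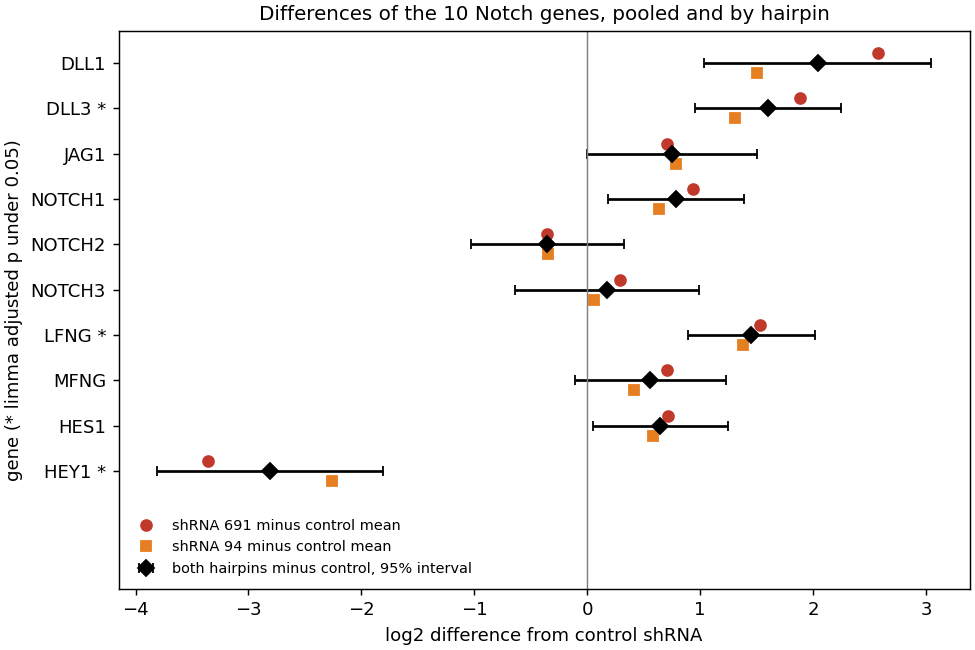
Log2 difference from control shRNA for each of the 10 genes, with diamonds and bars for both hairpins together and their 95% interval, circles for shRNA 691 and squares for shRNA 94. DLL3, LFNG and HEY1, marked with a star, passed the threshold in limma, and the intervals of JAG1, NOTCH2, NOTCH3 and MFNG include 0.

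Other genes of the pathway were read from a list, of which 40 had a named probe and 27 were tested. None passed in limma, and 5 of the 27 had an unadjusted p under 0.05, against 1903 of all 10377 tested genes. Their median log2 difference was 0.23, against 0.00 over all tested genes, and the groups did not overlap for 14 of the 27 (51.9%), near the 50.2% of all tested genes. These totals include DTX1, which was detected on neither control array. The remaining ligand and receptor genes, DLL4, JAG2 and NOTCH4, did not reach detection on 2 arrays. Nor did the clock gene HES7, the target genes HES2, HES5 and NRARP, the coactivator genes MAML2 and MAML3, the ligase genes MIB1, NEURL1 and DTX4, or the Fringe gene RFNG.

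The brightest tested gene of each role did not pass, and with n = 2 per group the size of each difference is imprecise. POFUT1, the enzyme that adds the fucose on which Fringe acts, differed by -0.13 ± 0.26 on the log2 scale (SE, n = 2 per group, limma adjusted p = 0.839). NCSTN, a subunit of the gamma-secretase protease, stood at 0.14 ± 0.27, and SPEN, a corepressor partner of RBPJ, at -0.33 ± 0.25 (limma adjusted p = 0.832 and 0.542). NUMB, an inhibitor of Notch, stood at -0.39 ± 0.22 and the target gene HES4 at 0.57 ± 0.37 (limma adjusted p = 0.41 and 0.471). RBPJ itself stood at -0.11 ± 0.24 (limma adjusted p = 0.846). The proteases ranged from -0.36 to 0.49 over 8 tested genes and the nuclear factors from -0.33 to 0.33 over 4.

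A few other pathway genes are named after their values were seen. MIB2, a ubiquitin ligase that acts on Notch ligands, had the largest difference of the list. It read 650.5 with shRNA 691 and 481 with shRNA 94, against 264.1 and 356.2 in controls 1 and 2, a log2 difference of 1.23 ± 0.31 (limma adjusted p = 0.113). Without control 2 it was 1.60. DTX1, a Deltex gene of the pathway, was detected on both TMEM88 shRNA arrays and on neither control array, at least 1.33-fold higher (limma adjusted p = 0.116 with all arrays and 0.0327 without control 1). It entered the test only through the group where it is higher, so neither value lends support.

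HEY2 and HEYL, the relatives of HEY1, did not share its lower level. HEY2 read 491.8 with shRNA 691 and 426.4 with shRNA 94, against 375.3 and 309.6 in controls 1 and 2. HEYL read 264.9 and 275.5 with shRNA 691 and 94, against 214.9 and 206.9 in controls 1 and 2. Both genes were higher on both hairpin arrays than on both controls, by log2 differences of 0.63 ± 0.24 and 0.64 ± 0.24 that did not pass (limma adjusted p = 0.235 and 0.233). The difference between HEY1 and its relatives was not itself tested.

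**Figure D4:**
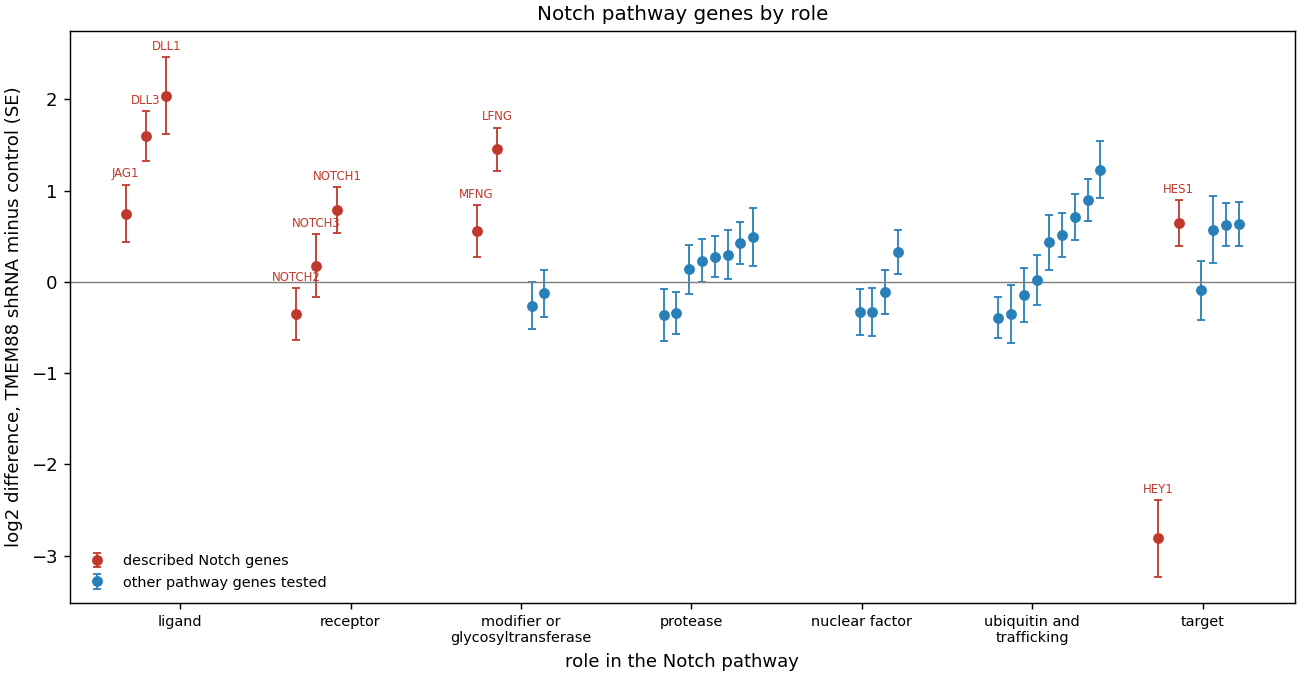
Log2 difference between TMEM88 shRNA and control shRNA with its SE (vertical axis) for the 10 described genes (named) and the 27 other tested pathway genes, grouped by role along the horizontal axis. The other pathway genes lie between -0.39 and 1.23, and HEY1 lies far below every other gene shown.

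Marker genes of cell types were read on the same arrays, and 6 of the 26 tested passed. Of all tested genes 1.98% passed, 0.954% as higher and 1.02% as lower. The marker lists were chosen with earlier results of these data known, so the count of 6 lends no support to a shift of markers. Sums are given per list and array, and a bright probe can dominate a sum. Summed linear level over the tested markers of endothelium was 3050 with shRNA 691 and 2070 with shRNA 94, against 994 and 620 in controls 1 and 2. That sum rests on TEK, SOX18 and VWF, since PECAM1, CDH5, TIE1 and ERG were detected on 0 arrays, and none of the 3 passed in limma. Most of it is VWF, which differed by 1.88 on the log2 scale and missed the threshold narrowly (limma adjusted p = 0.0502). TEK differed by -0.14. Paraxial mesoderm markers summed to 229 and 256 with shRNA 691 and 94, against 76.7 and 85.6 in the controls, from 2 of 7 genes, of which FOXC2 rose. The other, TCF15, was detected on neither control array, so it entered the sum only through the group where it is higher. TBX6, MSGN1, MEOX1 and PAX3 were detected on 0 arrays and RIPPLY2 on 1. Neural ectoderm markers summed to 2360 and 2310, against 691 and 209, with ZIC2 and OTX2 called higher and SOX1 and PAX6 detected on 0 arrays. OTX2 was detected on 1 control array, so it needed the TMEM88 shRNA arrays, where it is higher, and its call lends no support. SOX3, the other neural marker tested, lay lower on both TMEM88 shRNA arrays, by -2.38 on the log2 scale, and did not pass (limma adjusted p = 0.0684). It was detected on 1 TMEM88 shRNA array and so needed the controls, where it is high, to enter. Endoderm markers summed to 2840 and 2290, against 1320 and 649, and pluripotency markers to 13900 and 9980, against 8990 and 9280, and none of the 5 and 4 tested genes passed. Nearest to the threshold was SOX17 of the endoderm list, with a log2 difference of 1.81 (limma adjusted p = 0.0503). CER1 in the endoderm sum was likewise detected on neither control array. HHEX, also in that sum, and SOX2 among the pluripotency markers were detected on 1 control array. Of the 11 markers of cardiovascular progenitors 9 were tested, and TBX5 and TBX20 were detected on 0 arrays. Of the 9, 3 fell, HAND2, MEF2C and PDGFRA, where 1.02% of all tested genes were called lower. MEF2C was detected on neither TMEM88 shRNA array and HAND2 on 1 of them. Both genes thus needed the controls, where they are high, to enter the test, so this count lends no support. GATA4 and GATA6 also lay lower on both TMEM88 shRNA arrays, with log2 differences of -1.17 and -1.29, and did not pass. Each was detected on 1 TMEM88 shRNA array and so also needed the controls to enter. KDR, NKX2-5 and HAND1 differed the other way, by 1.20, 0.97 and 0.71 on the log2 scale, and did not pass. For KDR and HAND1 the groups overlapped. KDR was detected on 1 control array and needed the TMEM88 shRNA arrays to enter. ISL1 was nearly level, at 0.03. The cardiovascular sum was 9020 and 9720, against 7990 and 12100, so the groups overlapped. The part of these markers in the Notch gene differences was not tested.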

How the data were processed

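RNA of 4 samples was measured on 1-colour Illumina bead arrays. The deposited intensity values are linear probe signals, not normalized, and each stands beside a detection p-value, per the file headers. A deposited matrix gives log2 values for these arrays, each within 0.158 of the log2 signal after quantile normalization. The steps behind it are not stated. The submitters' processing notes name lumi and limma 3.12.3 without saying what each did.

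Here intensities were normalized by neqc (limma 3.58.1, R 4.3.3; negative controls inferred from detection p-values, offset 16, quantile normalization). Probes detected (p under 0.01) on at least 2 arrays were kept, and the brightest per gene stood for it, giving 10377 genes. Symbols came from the platform annotation, updated through the RefSeq gene table of GRCh38.p14. The 2-sided test was lmFit with eBayes, adjusted by Benjamini-Hochberg over all tested genes and a threshold of 0.05, on 2 residual and 4.84 prior degrees of freedom. The 3-group fit had 1 residual degree of freedom. Bounds use the brighter group's mean. The steps were tested on simulated data, and figures drawn with matplotlib 3.10.9.

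The genes, lists, promoters and motifs were chosen with earlier results of these data known. Named are the 10 genes, TMEM88, called genes of the pathway list and the brightest tested gene of each role, with exceptions stated. Among the promoter entries used, none was taken for DLL1, DLL3, MFNG or HEY1.

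Alternatives covered background correction, offset, normalization, the deposited matrix, the detection filter, probes per gene, the variance model and leaving out each array.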

Additional observations from a re-analysis of the deposited data

How the results depend on the processing

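Over 130 values of the 10 genes under other settings, 112 kept direction and side of the threshold, 12 kept direction and lost the call, 5 gained one, and 1 changed sign. The sign change was NOTCH3, from 0.176 with all arrays to -0.295 without control 2. Without control 1 it was 0.648. DLL3, LFNG and HEY1 were called with no background correction, with an offset of 50, with the deposited matrix (log2 differences 1.39, 1.16 and -2.29, limma adjusted p = 0.0229, 0.0159 and 0.018), with detection on all 4 arrays and with an intensity trend, which also called DLL1 (limma adjusted p = 0.0439). The count of 3 called genes became 1 with median scaling (HEY1), 0 with no detection filter, when 20046 genes were tested, and 0 to 6 when 1 array was left out. With the mean of detected probes DLL3 missed (1.22, limma adjusted p = 0.131). The count of 205 over all genes became 19 with no detection filter and 50 to 1453 without 1 array. For shRNA 691 alone the count of 2 became 0 with no background correction and 1 with detection on all 4 arrays, where DLL1 was not tested. For shRNA 94 and between hairpins it was 0 in each. Over all genes, the counts of 90 for shRNA 691 and 50 for shRNA 94 became 46 and 26 from the deposited matrix, 32 and 3 where detection on all 4 arrays was required, and 19 and 5 from signals left uncorrected for background. For the other pathway genes it ranged from 0 to 1 without 1 array and was 0 under each other setting. A fit without a control takes its residual spread from the hairpin pair alone (pair SD 0.255), and one without a hairpin from the controls (pair SD 0.398). A single hairpin could not be fitted with a control left out, since no residual degree of freedom remains. Signal near background limits MFNG, DLL1 and the dimmer probes. No samples are paired by the labels.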
